A study of Mus musculus with 45 samples.

Results

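Ptgds, the lipocalin-type prostaglandin D synthase, was examined with 7 other genes of prostaglandin synthesis and breakdown (Ptgs1, Ptgs2, Ptgis, Ptges, Ptges2, Ptges3 and Hpgd) in the hearts of 45 male C57BL/6 mice. The 8 genes were taken by name, and their probe sets were those whose annotation gave 1 gene symbol. Of the 8 genes, 6 had such a probe set, 10 probe sets in all, out of 12394 genes and 20393 probe sets with 1 symbol on the array. Ptgs1 and Ptges3 had none and are not reported further. Ptgds had been selected on its measured difference between smoke and air in these same arrays, so its values are given as a description, with no test.

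The regular weight (RW) mice were fed a diet of about 5 kcal% fat. The diet-induced obese (DIO) mice were fed one of 60 kcal% fat from the age of 6 weeks, for 9 weeks up to the exposures. At 15 weeks old, mice on each diet began to breathe filtered air (SC, sham control), mainstream cigarette smoke (MS), which a smoker draws in, or sidestream smoke (SS), which leaves the burning tip. Exposure was nose-only, 8 times for 5 h within 2 weeks, and hearts were collected on the day after the last. The hearts, each on its own oligonucleotide array, numbered 8 in each of RW-SC and DIO-SC, 8 in RW-MS, 6 in DIO-MS, 7 in RW-SS and 8 in DIO-SS. The part of the heart taken and the hour of collection are not given in the labels. The study asked, by its title, how obesity alters the response of the heart to smoke. The comparisons were each smoke with air on the same diet, DIO with RW hearts under the same exposure, sidestream against mainstream smoke, and the interaction (the smoke effect in DIO minus that in RW hearts).

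Prostaglandins are short-lived lipid signals. Phospholipases and other lipases free arachidonic acid from lipids, the cyclooxygenases Ptgs1 and Ptgs2 turn it into prostaglandin H2, and a terminal synthase then sets the product: Ptgds makes prostaglandin D2, Ptgis makes prostacyclin, Ptges, Ptges2 and Ptges3 are prostaglandin E synthases. Hpgd, 15-hydroxyprostaglandin dehydrogenase, starts their breakdown. Ptgds is also a secreted carrier of small lipophilic molecules and is known from brain, testis and heart, and prostacyclin is known as a vessel-widening product of endothelium and smooth muscle.

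The promoter of Ptgds and that of Ptges2, the tested synthase whose calls held without any 1 array, are shown. Each is the 250 bases before the start used for the gene (GRCm38.p6, chr2:25469750-25469999, minus strand, for Ptgds and chr2:32395640-32395889, plus strand, for Ptges2). The Ptges2 stretch ends at the base before the listed start of that gene. The Ptgds stretch lies inside the listed span of its gene (chr2:25466709-25470110), so it is not upstream of the whole span. Capitals mark matches to TGACTCA (the AP-1 site), CACGTG (the E-box of clock proteins) and, in Ptgds only, CANNTG (the general E-box, of which CACGTG is one form).
Ptgds: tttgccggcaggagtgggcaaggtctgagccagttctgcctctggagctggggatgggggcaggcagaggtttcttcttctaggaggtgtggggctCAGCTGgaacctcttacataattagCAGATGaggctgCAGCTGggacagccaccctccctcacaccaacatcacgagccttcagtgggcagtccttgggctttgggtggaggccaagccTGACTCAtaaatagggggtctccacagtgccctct
Ptges2: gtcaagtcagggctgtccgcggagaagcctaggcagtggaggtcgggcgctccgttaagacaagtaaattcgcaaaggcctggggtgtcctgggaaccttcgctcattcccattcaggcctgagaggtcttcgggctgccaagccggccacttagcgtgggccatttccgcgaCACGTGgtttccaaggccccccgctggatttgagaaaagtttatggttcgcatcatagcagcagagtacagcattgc
In the Ptgds promoter TGACTCA began 35 bases before the start used and CANNTG 154, 129 and 117 bases before it. The Ptges2 promoter had CACGTG 77 bases before its start. Among 32851 mouse promoters of this length, read on both strands, 4.5% held TGACTCA, 6.0% CACGTG and 66.2% CANNTG. Neither promoter held AGGTCA (a nuclear receptor half-site, in 14.0% of promoters) or TGTTCT (a glucocorticoid receptor half-site, in 16.1%). Of the 7 genes with an entry in the promoter table, Ptgds alone held TGACTCA and Ptges2 alone CACGTG. The Ptgds promoter was 58.4% G or C with 2 CG dinucleotides, and that of Ptges2 57.6% with 15, against medians of 52.4% and 6 over all promoters. A match describes the letters and is not a measured binding site.

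All values are log2 expression values as deposited, in which 1 unit is a factor of 2, and each difference of group means carries the SE that limma gives (±). A probe set whose mean lay under 4.90, the limit below which the lowest 25% of genes fell, in all 6 groups was called near background. The 6 cardiomyocyte markers were at 11.68 or higher in every heart. RW-MS 2, 6 and 8 nearly lacked atrial transcripts, with Sln at 4.47, 5.37 and 5.42 against 12.16 to 12.97 in the other 5 RW-MS hearts, so their samples differ in tissue makeup. Hearts of every group also varied in fat cell markers. The mean of the 6 measured ones ran from 6.07 to 9.44, with group SDs of 0.64 to 1.23. In air it averaged 7.93 in RW and 7.08 in DIO hearts. RW-MS 7 and RW-SS 7 had the lowest correlation with the rest of their groups (0.9824 and 0.9899), and RW-SS 7 had a Gapdh 3′ minus 5′ difference, a measure of RNA breakdown, of 0.94 against 0.21 to 0.40 in the other 44 arrays. A further quantile normalization moved the share of higher among called genes from 47.3% to 60.8% in RW-SS against RW-SC, from 72.3% to 58.8% in DIO-SS against DIO-SC and from 64.4% to 39.2% in the sidestream interaction. It moved that share from 60.5% to 44.2% in DIO-SS against RW-SS, from 34.1% to 46.1% in DIO-SC against RW-SC, from 41.7% to 51.9% in RW-MS against RW-SC, from 37.7% to 55.7% in RW-SS against RW-MS and from 62.4% to 38.0% in DIO-SS against DIO-MS.

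Ptgds was lower in smoke-exposed hearts of either diet than in hearts from air. On probe set 1423859_a_at the lowest, median and highest log2 levels were 12.94, 13.24 and 13.45 in RW-SC hearts and 13.31, 13.43 and 13.69 in DIO-SC hearts. Under mainstream smoke they were 12.31, 12.70 and 13.02 in RW and 12.33, 12.59 and 12.89 in DIO hearts, and under sidestream smoke 12.44, 12.54 and 12.76 in RW and 12.30, 12.52 and 13.25 in DIO hearts. Only in the RW-MS comparison did smoke and air values overlap on this probe set, and every one of the 29 smoke-exposed hearts lay under the mean of its air group. The highest smoke-exposed heart was DIO-SS 2, at 13.25 against 12.82 for the next DIO-SS heart.

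**Figure D1:**
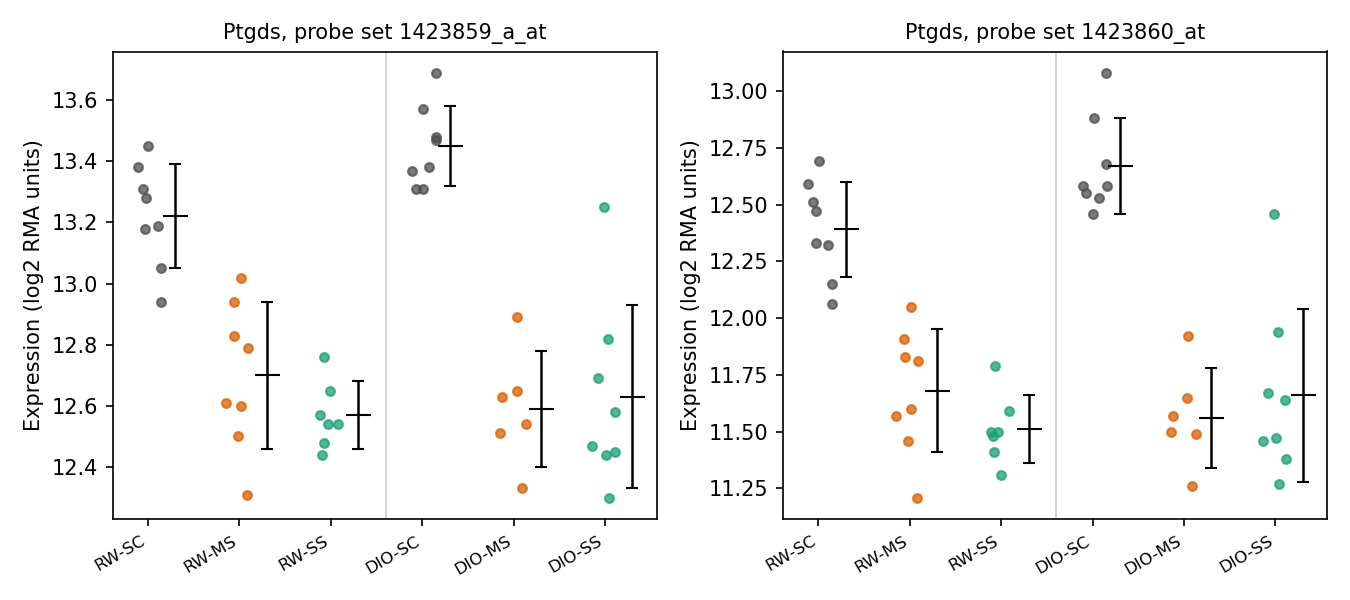
Log2 expression of Ptgds in each heart on its 2 probe sets, with the group mean and its SD beside the points; the vertical axes do not start at 0. The smoke groups have means of 12.57 to 12.70 on 1423859_a_at and the air groups 13.22 and 13.45, with DIO-SS 2 at 13.25.

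The order of the group means on 1423859_a_at was DIO-SC (13.45 ± 0.13 SD), RW-SC (13.22 ± 0.17), RW-MS (12.70 ± 0.24), DIO-SS (12.63 ± 0.30), DIO-MS (12.59 ± 0.19) and RW-SS (12.57 ± 0.11). The 4 smoke groups stood next to each other in this order, with means of 12.57 to 12.70 and SDs of 0.11 to 0.30. RW-SS minus RW-MS was -0.13 ± 0.10 and DIO-SS minus DIO-MS 0.03 ± 0.11, with 95% intervals of -0.34 to 0.07 and -0.18 to 0.25. Between the diets under smoke, DIO-MS minus RW-MS was -0.11 ± 0.11 and DIO-SS minus RW-SS 0.06 ± 0.10. In air, the DIO hearts were higher by 0.22 ± 0.10 (95% interval 0.03 to 0.42), and these groups overlapped.

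Against air, the difference was -0.52 ± 0.10 for RW-MS (1.44-fold lower, n = 8 and 8), with 8 of 8 hearts under the air mean. It was -0.65 ± 0.10 for RW-SS (1.57-fold, n = 7 and 8, 7 of 7 hearts). In DIO hearts it was -0.86 ± 0.11 for mainstream smoke (1.81-fold, n = 6 and 8, 6 of 6) and -0.82 ± 0.10 for sidestream smoke (1.77-fold, n = 8 and 8, 8 of 8). The RW-SS, DIO-MS and DIO-SS values lay wholly under those of their air group, as did 3.26%, 0.495% and 1.19% of the 9295 tested genes in those comparisons, and 0.667% in RW-MS against RW-SC. A lower change than that of Ptgds was found for 38 genes in RW-MS, 22 in RW-SS, 2 in DIO-MS and 5 in DIO-SS of those 9295, and since the gene was chosen for these differences nothing is read from these counts. In heart tissue, fewer cells that make Ptgds and less Ptgds RNA per cell cannot be told apart.

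The interaction, the smoke difference of DIO minus that of RW hearts, was -0.33 ± 0.14 for mainstream smoke (95% interval -0.62 to -0.04). For sidestream smoke it was -0.17 ± 0.14, with an interval of -0.45 to 0.12. The air means of the diets enter these values, and they too differ, by 0.22. As Ptgds was chosen on its smoke differences, these intervals are a description and do not test an interaction. Without the 3 RW-MS hearts that nearly lack atrial transcripts, the RW-MS difference was -0.48 ± 0.11. Ptgds in those hearts was 12.61, 12.79 and 12.50, within the range of the other 5 (12.31 to 13.02). Without DIO-SS 2 the DIO-SS difference was -0.91 ± 0.09.

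The other Ptgds probe set, 1423860_at, gave the same order of air above smoke with larger differences. Its group means were 12.39 and 12.67 in air (RW and DIO), 11.68 and 11.56 under mainstream and 11.51 and 11.66 under sidestream smoke. Smoke differences were -0.71 ± 0.12 in RW-MS, -0.88 ± 0.13 in RW-SS, -1.10 ± 0.13 in DIO-MS and -1.01 ± 0.12 in DIO-SS (1.64-, 1.84-, 2.15- and 2.01-fold lower). Here RW-MS no longer overlapped with air, whereas DIO-SS touched DIO-SC at 12.46, the value of DIO-SS 2 and of the lowest DIO-SC heart. Across the 45 arrays the probe sets went together with r = 0.99, and 1423859_a_at exceeded 1423860_at by 0.61 to 1.34. The largest gap belonged to RW-SS 7, at 12.65 and 11.31, and the correlation within RW-SS was 0.492 against 0.951 to 0.995 within the other groups.

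Across the 45 arrays, the genes whose level followed Ptgds most closely, out of 9168 compared, were Srsf2 (r = 0.794), Slc35a4 (0.774), Srsf3 (0.769), Sema7a (0.738), Cct3 (0.721), Klhdc8a (0.691), Cdk12 (0.688), Ndufaf4 (0.687), Tubb6 (0.682) and Slc35f6 (0.681). Srsf2 and Srsf3 encode splicing factors, and Cct3 a subunit of the chaperonin that folds actin and tubulin. The 45 arrays share the contrast of smoke and air, in which each of the 10 genes had a lower mean in all 4 smoke groups than in air: Srsf3, for example, differed from air by -0.50 in RW-MS, -0.59 in RW-SS, -0.56 in DIO-MS and -0.58 in DIO-SS. With each group mean taken off, the correlation of Srsf3 with Ptgds was 0.071 and that of Slc35a4 0.446. On that scale the closest genes were Phf7 (0.537), Nhp2 (0.530), Nudt16 (0.482), Pla2g12a (0.477), Tkfc (0.474), Cdv3 (0.473), Mocos (0.469), Pisd-ps3 (0.468), Pomt1 (0.467) and Armc7 (0.458). Both lists were picked as the highest of 9168 values from these same arrays. How high such values run among unrelated genes was not tested, so no tie to Ptgds is read from them. For the other tested members, r with Ptgds over the 45 arrays was 0.266 for Ptgis, -0.079 for Ptges2 and -0.076 for Hpgd.

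Of the members other than Ptgds, Ptgis, Ptges2 and Hpgd passed the filter and were tested with limma, with Benjamini-Hochberg adjusted p values over all 9295 genes and a threshold of 0.05. None of the 3 was past it in RW-MS against RW-SC (6.86% of all genes were), DIO-MS against DIO-SC (4.55%), DIO-SC against RW-SC (20.3%), DIO-MS against RW-MS (10.6%), RW-SS against RW-MS (5.82%), DIO-SS against DIO-MS (2.55%) or the mainstream interaction (0.226%). In RW-SS against RW-SC 1 of 3 was lower, where 13.0% of all genes were lower and 11.7% higher. In DIO-SS against DIO-SC 2 of 3 were higher, where 23.0% of all genes were higher and 8.82% lower. The same 2 were higher in DIO-SS against RW-SS (19.7% of all genes higher, 12.9% lower) and in the sidestream interaction (18.3% and 10.1%). With 3 genes, these counts are a description.

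**Figure D2:**
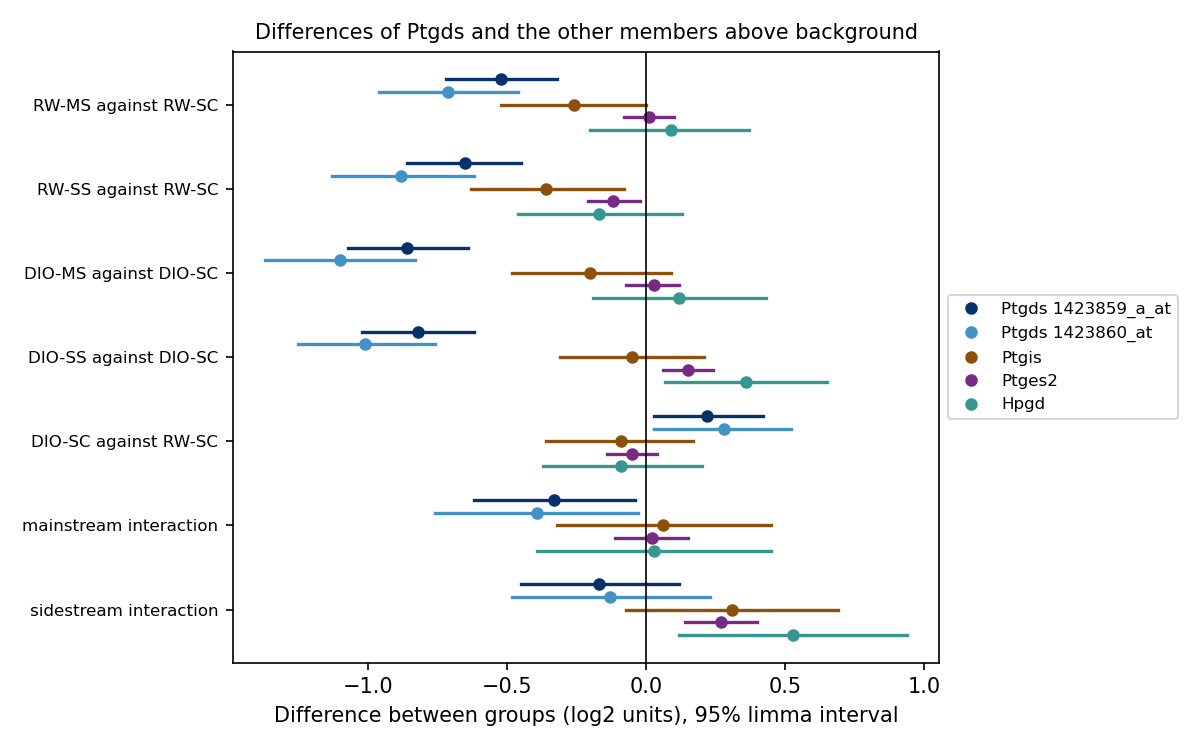
Differences between group means, in log2 units, with 95% limma intervals, for both Ptgds probe sets and for Ptgis, Ptges2 and Hpgd. The Ptgds points lie between -1.10 and -0.52 in the 4 comparisons of smoke with air, while Ptges2 lies between -0.12 and 0.15 there.

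Ptgis, prostacyclin synthase (1448816_at), fell by 0.36 ± 0.13 in RW-SS against RW-SC (1.28-fold, adjusted p = 0.047, 6 of 7 hearts, n = 7 and 8). Its lowest, median and highest levels were 8.95, 9.40 and 9.60 in RW-SC, 8.63, 9.04 and 9.66 in RW-MS, and 8.36, 9.11 and 9.36 in RW-SS hearts. In DIO hearts they were 9.01, 9.20 and 9.70 in air, 8.94, 9.06 and 9.14 under mainstream and 8.93, 9.18 and 9.54 under sidestream smoke. All smoke groups overlapped with air. The other smoke differences did not pass: -0.26 ± 0.13 in RW-MS (adjusted p = 0.254), -0.20 ± 0.14 in DIO-MS (0.504) and -0.05 ± 0.13 in DIO-SS (0.801). The sidestream interaction was 0.31 ± 0.19 (adjusted p = 0.214), so the sidestream effects of the diets were not shown to differ.

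The RW-SS call was lost without any 1 of RW-SC 1, 2, 3, 5 and 6 and RW-SS 2, 3 and 4, with adjusted p up to 0.165 and a difference of -0.25 without RW-SS 4, the lowest heart at 8.36. It was also lost in 5 of 12 alternatives, such as no filter (adjusted p = 0.0555), and kept in the others. The difference was -0.39 (adjusted p = 0.00593) with the mean of the fat cell markers in the model. With the mean of the atrial markers it was -0.38 (0.0102). Ptgis in DIO-SS against RW-SS was 0.21 ± 0.13 (adjusted p = 0.221), and it passed with the mean of the fat cell markers as a covariate (0.34, 0.0145). In the RW-MS hearts nearly without atrial transcripts Ptgis was 8.64, 8.80 and 8.63, under all of the other 5 (8.99 to 9.66), and without them the RW-MS difference was -0.02 ± 0.13.

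Ptges2, a membrane-associated prostaglandin E synthase (1417591_at), rose by 0.15 ± 0.04 in DIO-SS against DIO-SC (1.11-fold, adjusted p = 0.00721, 8 of 8 hearts, n = 8 and 8). Its lowest, median and highest levels were 8.07, 8.31 and 8.41 in DIO-SC, 8.23, 8.31 and 8.48 in DIO-MS, and 8.40, 8.44 and 8.52 in DIO-SS hearts. In RW hearts they were 8.25, 8.34 and 8.45 in air, 8.15, 8.34 and 8.54 under mainstream and 8.15, 8.24 and 8.31 under sidestream smoke. DIO-SS hearts lay wholly above RW-SS hearts, by 0.22 ± 0.05 (adjusted p = 0.000396, n = 8 and 7), a lack of overlap seen for 7.21% of tested genes in that comparison. In RW-SS against RW-SC the difference was -0.12 ± 0.05 (adjusted p = 0.0554, 7 of 7 hearts below the air mean) and did not pass. The interaction was 0.27 ± 0.06 (adjusted p = 0.00198), that is, the sidestream effects of the diets differed.

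These calls of Ptges2 held without any 1 array, but with a further quantile normalization the DIO-SS difference was 0.10 (adjusted p = 0.0931) and the interaction 0.17 (0.0615), while DIO-SS against RW-SS kept its call (0.15, 0.0152). The normalization also moved the balance of all called genes, as given above. Endothelial markers moved beside it: 4 of 5 were higher in DIO-SS against DIO-SC, with a list mean of 8.62 to 8.72 in DIO-SS against 8.40 to 8.54 in DIO-SC hearts. Of the fibroblast markers 1 of 6 was higher there, where 23.0% of all genes were higher. In the interaction 3 of 5 endothelial and 4 of 6 fibroblast markers were higher, where 18.3% of all genes were. The part of these markers in the result was not tested.

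Hpgd (1419905_s_at), which inactivates prostaglandins, rose by 0.36 ± 0.14 in DIO-SS against DIO-SC (1.28-fold, adjusted p = 0.0475, 8 of 8 hearts above the air mean, n = 8 and 8). Its lowest, median and highest levels were 6.85, 7.24 and 7.98 in DIO-SC, 7.26, 7.42 and 7.66 in DIO-MS, and 7.39, 7.72 and 7.87 in DIO-SS hearts. In RW hearts they were 6.93, 7.46 and 7.68 in air, 7.21, 7.31 and 8.52 under mainstream and 6.89, 7.24 and 7.67 under sidestream smoke. DIO-SS hearts formed the group with the highest median, and it overlapped with every other group. It exceeded RW-SS by 0.44 ± 0.15 (adjusted p = 0.0185), and the sidestream interaction was 0.53 ± 0.20 (adjusted p = 0.0474). The smoke differences in RW hearts did not pass: 0.09 ± 0.14 in RW-MS (0.791) and -0.17 ± 0.15 in RW-SS (0.424).

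The Hpgd calls in DIO-SS against DIO-SC and in the interaction lay at the threshold. The former was lost without any 1 of 12 of its 16 arrays (adjusted p up to 0.118, without DIO-SC 3) and the latter without 21 of 31 (up to 0.0868, without RW-SS 4). Of single arrays, RW-SS 4 was the one without which the call against RW-SS was lost (0.0516). The other Hpgd probe set, 1419906_at, was near background with group means of 3.80 to 3.95. Its differences had the opposite sign: -0.15 ± 0.08 in DIO-SS against DIO-SC, -0.14 ± 0.08 in DIO-SS against RW-SS and -0.23 ± 0.12 in the interaction. Averaging the 2 probe sets ended all 3 calls, with 0.11 (adjusted p = 0.396) in DIO-SS against DIO-SC, 0.15 (0.21) in DIO-SS against RW-SS and 0.15 (0.398) in the interaction. With no filter the first and the last missed the threshold as well (0.0549 and 0.0502). The RW-MS median of 7.31 stood beside a single high heart, RW-MS 7 at 8.52, and without it the RW-MS difference was -0.06 ± 0.12. The endothelial and fibroblast markers given for Ptges2 moved with these comparisons too, and their part was not tested here either.

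**Figure D3:**
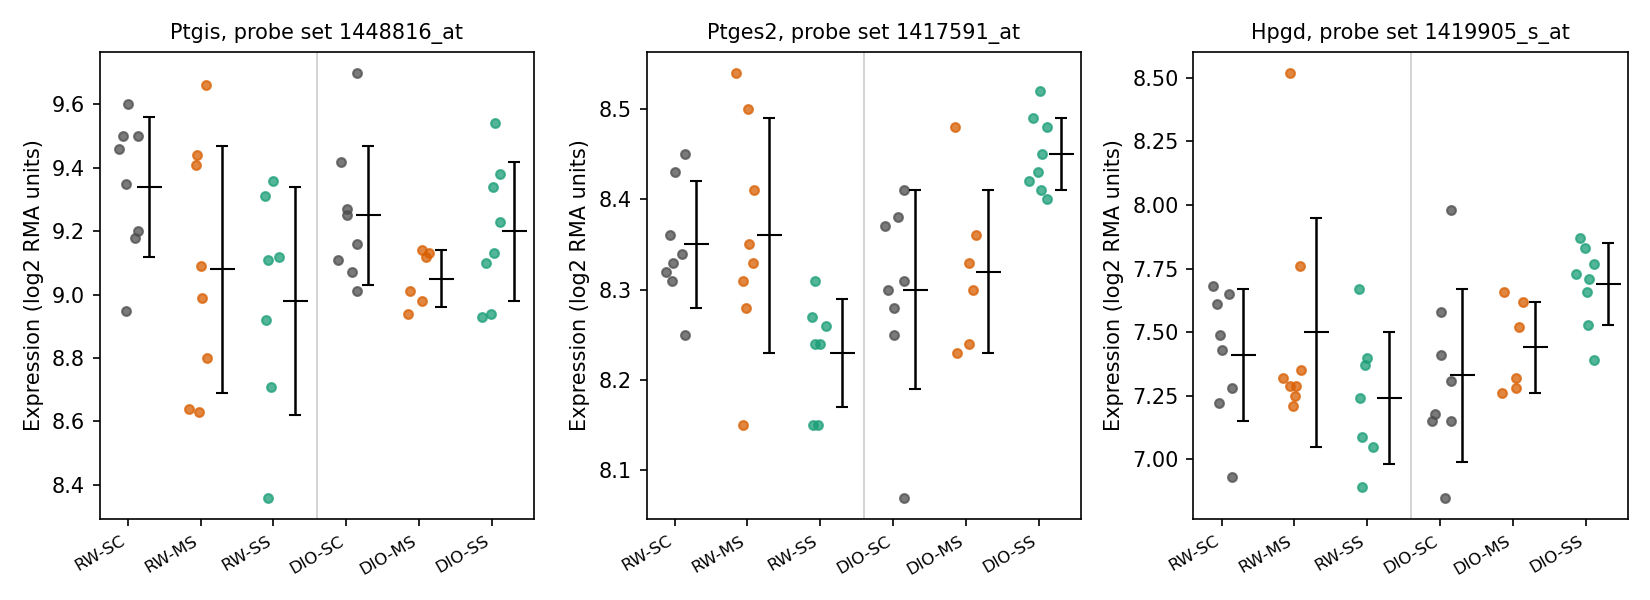
Log2 expression of Ptgis, Ptges2 and Hpgd in each heart by group, with the group mean and its SD; the vertical axes do not start at 0 and differ between panels. All 8 DIO-SS hearts lie at 8.40 or higher for Ptges2, above all 7 RW-SS hearts, and RW-MS 7 stands at 8.52 for Hpgd.

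Ptgs2, the inducible cyclooxygenase, and Ptges, the microsomal prostaglandin E synthase, were near background on all of their probe sets and were left out of the test, so 5 of the 10 probe sets, with 1419906_at of Hpgd, were near background. Ptgs2 lay between 3.69 and 5.14 on 1417262_at, with 40 of 45 arrays under 4.90, and between 2.95 and 3.40 on 1417263_at. Group means of 1417262_at ran from 4.27 ± 0.43 (SD) in RW-MS to 4.68 ± 0.35 in DIO-SC hearts. RW-MS 2, 6 and 8, the hearts nearly without atrial transcripts, had 3.69, 3.78 and 3.86. Ptges ran from 4.20 to 4.88 on 1449449_at and from 4.02 to 4.80 on 1449450_at, under 4.90 on all 45 arrays. On 1449449_at the means were 4.50 in RW-SC and 4.73 in RW-SS hearts, and 4.67 in DIO-SC and 4.46 in DIO-SS hearts. The sidestream interaction on this probe set was -0.43 ± 0.11. With no filter on low genes, Ptges on 1449449_at was past the threshold in RW-SS against RW-SC (0.22, adjusted p = 0.034), DIO-SS against DIO-SC (-0.21, 0.0356), DIO-SS against RW-SS (-0.26, 0.0092) and the interaction (0.0034), and Ptgs2 in none of the 11 comparisons. On 1449450_at the RW difference was 0.01 ± 0.09 and the DIO difference -0.15 ± 0.09, with an interaction of -0.16 ± 0.12. These differences lie at levels near background on every array.

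A list of 30 further genes of the pathway gave 21 tested genes. Another 5 lay under the filter (Hpgds, Ptgdr2, Ptger2, Ptger3 and Alox15), and 4 had no probe set with 1 symbol. Hpgds, the other prostaglandin D synthase, had group means of 4.40 to 4.60. With no filter, Hpgds and Ptgdr2 passed in DIO-SS against RW-SS and in the sidestream interaction, and Ptgdr2 in RW-SS against RW-SC. No listed gene passed in RW-MS against RW-SC, RW-SS against RW-MS or the mainstream interaction, where 6.86%, 5.82% and 0.226% of all genes did. In RW-SS against RW-SC 0 of 21 were higher and 3 lower, with a median change of -0.05 over the list against 0.00 over all genes (11.7% of all genes were higher and 13.0% lower). In DIO-SS against DIO-SC 7 were higher and 3 lower (medians 0.10 and 0.04), where 23.0% of all genes were higher and 8.82% lower. In DIO-MS against DIO-SC 1 was higher and 0 lower (medians 0.03 and 0.01), where 3.66% of all genes were higher.

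Of the 6 tested receptors, 1 was lower in RW-SS against RW-SC, and 1 was higher and 2 lower in DIO-SS against DIO-SC, beside the shares of all genes just given (13.0% lower in RW-SS, 23.0% higher and 8.82% lower in DIO-SS). Ptgir, the prostacyclin receptor, fell by 0.37 ± 0.07 in RW-SS against RW-SC (adjusted p = 0.000178, 7 of 7 hearts, levels of 5.51 to 5.91 in air and 5.21 to 5.63 under smoke). In DIO-SS hearts it ranged from 5.46 to 5.78 and in DIO-SC hearts from 5.41 to 5.75, and the interaction was 0.48 ± 0.10 (adjusted p = 0.000799). Ptger4, a prostaglandin E2 receptor, rose by 0.32 ± 0.08 in DIO-SS against DIO-SC (adjusted p = 0.00222, 8 of 8 hearts). Ptgdr, a receptor for prostaglandin D2, fell by 0.18 ± 0.06 there (adjusted p = 0.0199), from 5.74 to 6.07 in air to 5.62 to 5.86 under smoke. Tbxa2r, the thromboxane receptor, fell by 0.20 ± 0.07 (adjusted p = 0.0178). Both are dim, and the direction of all called genes in DIO-SS against DIO-SC varied with the filter on dim genes. The share of higher was 64.3% with no filter and 83.4% with the lowest 50% of genes left out. The DIO-SS call of Ptger4 and the interactions of Ptgir, Ptgdr, Ptger4 and Tbxa2r kept their calls after a further quantile normalization.

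Among genes that free arachidonic acid, Pla2g12a, a secreted phospholipase, fell by 0.20 ± 0.05 in RW-SS against RW-SC (adjusted p = 0.00231, 7 of 7 hearts), and Pla2g5, another, fell by 0.26 ± 0.09 in DIO-SS against DIO-SC (0.0316). Mgll, monoacylglycerol lipase, rose by 0.14 ± 0.05 in DIO-SS against DIO-SC (0.0186), and it was higher in DIO than in RW hearts by 0.23 ± 0.05 in air, 0.19 ± 0.05 under mainstream and 0.39 ± 0.05 under sidestream smoke (adjusted p = 0.000418, 0.0101 and 6.22e-08). The mainstream call of Mgll was lost without RW-MS 2, 6 and 8, the hearts nearly without atrial transcripts. Cbr1, a carbonyl reductase that can turn prostaglandin E2 into F2α, rose by 0.19 ± 0.04 in DIO-SS against DIO-SC (0.000389, 8 of 8 hearts). Prxl2b, a prostamide and prostaglandin F synthase, rose by 0.15 ± 0.04 (0.00527). Ptgr2, a prostaglandin reductase, fell by 0.16 ± 0.05 in RW-SS (0.017) and rose by 0.13 ± 0.05 in DIO-SS (0.0445), with an interaction of 0.29 ± 0.07 (0.00288). In the lipoxygenase branch, Alox12, the platelet-type 12-lipoxygenase, rose by 0.42 ± 0.13 in DIO-MS (0.0478) and by 0.47 ± 0.12 in DIO-SS (0.00279). Alox12 was dim, and both rises were measured from its lowest group mean. That mean was 5.02 in DIO-SC (lowest heart 4.68), against 5.32 to 5.49 in the other groups. DIO-SC minus RW-SC was -0.31 ± 0.12 (adjusted p = 0.0587), which passed only after a further quantile normalization. DIO-SS minus RW-SS was 0.11 ± 0.12 (0.52). Lta4h, the leukotriene A4 hydrolase, rose by 0.19 ± 0.05 in DIO-SS (0.00209).

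After a further quantile normalization 7 of the 10 calls of DIO-SS against DIO-SC remained (Pla2g5, Cbr1, Ptgdr, Ptger4, Tbxa2r, Alox12 and Lta4h), while those of Mgll, Prxl2b and Ptgr2 were lost. In RW-SS Pla2g12a and Ptgir remained and Ptgr2 was lost, and the DIO-MS call of Alox12 was lost there and with no filter. The DIO-SS call of Ptgr2 was also lost with no filter. The 3 red cell markers and 2 of 4 platelet markers were higher in RW-SS against RW-SC, where 11.7% of all genes were higher, and the part of these markers was not tested.

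In the sidestream interaction 6 of 21 listed genes were higher and 3 lower (medians 0.16 over the list and 0.06 over all genes), where 18.3% of all genes were higher and 10.1% lower. Ptgir, Ptger4, Pla2g12a, Ptgr2, Prxl2b and Cbr1 had positive values (0.18 to 0.48), and Tbxa2r, Ptgdr and Ptger1, another prostaglandin E2 receptor, negative ones (-0.35, -0.28 and -0.23). After a further quantile normalization 4 of these 9 calls remained, those of Pla2g12a, Cbr1, Prxl2b, Ptgr2 and Ptger1 were lost, and Alox12 passed. Tbxa2r, Ptgdr and Ptger1 were dim, with group means of 5.73 to 6.52. The direction of all called genes in the interaction varied with the filter on dim genes. The share of higher was 51.8% with no filter, 64.4% with the filter used here and 84.9% with the lowest 50% of genes left out. Whether the 3 receptors differ from other genes of their level was not tested. Between the diets under sidestream smoke, 6 listed genes were higher and 2 lower in DIO hearts (19.7% and 12.9% of all genes), the lower ones Tbxa2r (-0.20 ± 0.07) and the thromboxane synthase Tbxas1 (-0.17 ± 0.06, adjusted p = 0.0257). The calls of Tbxas1, Cbr1 and Prxl2b in this comparison were lost after a further quantile normalization. In that comparison all 5 endothelial, 4 of 6 fibroblast and 2 of 6 epicardial or mesothelial markers were higher. All 4 platelet and all 3 tested red cell markers were lower, and the part of these markers was not tested. In air 1 was higher in DIO hearts (Mgll) and 2 lower, Pla2g12a (-0.22 ± 0.05, adjusted p = 0.000982) and Ptgir (-0.23 ± 0.07, 0.0148), where 6.92% of all genes were higher and 13.3% lower. Under mainstream smoke 1 was higher in DIO than in RW hearts (Mgll), with 5.14% of all genes higher, and without RW-MS 2, 6 and 8 Mgll was lost and Cbr1 passed. Between the smokes in DIO hearts 1 was higher under sidestream smoke (Cbr1, 0.17 ± 0.04, adjusted p = 0.0302), with 1.59% of all genes higher. The smoke comparisons of a diet share their air hearts, so their changes are not independent of each other.

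**Figure D4:**
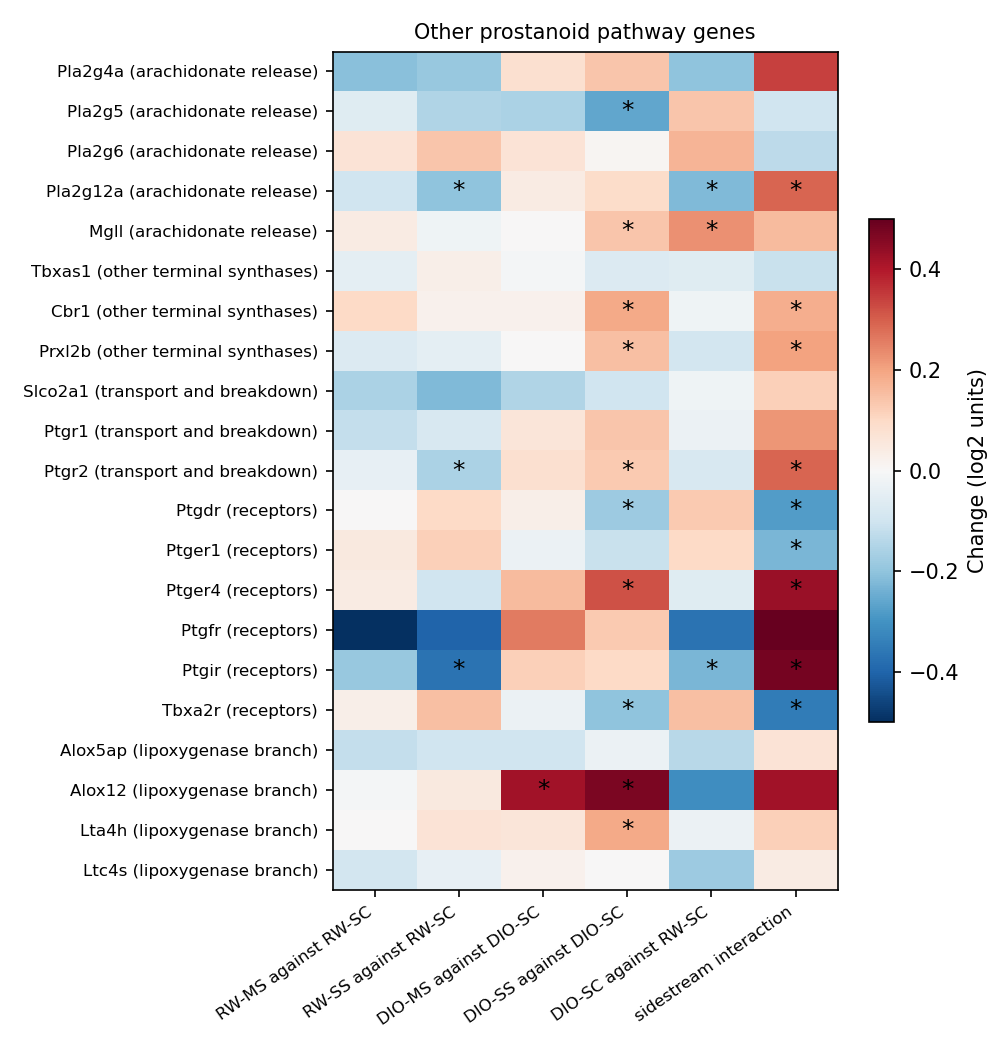
Log2 changes of the 21 tested pathway genes in 6 comparisons, red for higher and blue for lower; an asterisk marks an adjusted p under 0.05, and values past 0.5 in size have the end colour. The DIO-SS column holds 10 asterisks and the RW-SS column 3, and none stands in the RW-MS column.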

How the data were processed

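Total RNA from 1 heart per mouse was labelled from 3 µg and hybridized to Affymetrix mouse arrays, per the labels' protocols. The authors deposited log2 expression values per probe set, made with RMA per the submitters' processing notes, with no version or settings given. RMA adjusts for background and normalizes between arrays, so differences are relative to the other genes of the table. One protocol in the labels names an LPS exposure where the titles name cigarette smoke, and the titles were followed. Arrays have no read depth, and their number limits the precision.

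Of 22690 probe sets, 20393 had 1 gene symbol in the platform annotation. The probe set with the highest mean stood for its gene, and the lowest 25% of 12394 genes (under 4.90) were left out of the test. Group means of all 45 arrays were fitted to the deposited log2 values with limma 3.58.1 in R 4.3.3 (two-sided, 42.6 residual degrees of freedom with the prior, Benjamini-Hochberg over 9295 genes, threshold 0.05) in 11 comparisons. Python 3.11.15, pandas 2.3.3 and matplotlib 3.10.9 made tables and figures. The members, the pathway list, the marker lists and the tests were chosen with earlier results of these data known. Named were all members, every pathway gene past the threshold, and the 10 genes most like Ptgds over all arrays and within groups. Same-numbered arrays did not deviate together (median r of -0.005 over 106 pairs), so numbers were not taken to pair mice. On simulated data the fit recovered 77% of genes changed 1.2-fold and 97% of those changed 1.5-fold in RW-MS against RW-SC (9295 genes), and 44.5% and 94.5% in the sidestream interaction. At 1.2-fold, 6.7% and 8.2% of the called genes were false. The simulation changed 200 genes and drew independent normal noise for each gene. It held no outlying hearts and no shared differences in tissue makeup, so its shares need not hold for the members here. Alternatives were other filters, probe set rules, variance settings, weights for arrays, fits of the compared groups alone, quantile normalization of the deposited values, blocks by number, tissue markers as covariates and each array left out.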

Additional observations from a re-analysis of the deposited data

Results flagged for a closer look

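Among 60 pairs of a group and a probe set checked for an array far from the others of its group, 4 stood out by the gap to the nearest other array, where chance gives about 1 in 20. RW-MS 7 had 8.52 for Hpgd (1419905_s_at) and was also the array with the lowest correlation with its group. RW-SS 7, the array with the high Gapdh 3′ minus 5′ difference, had 2.95 for Ptgs2 (1417263_at). RW-SC 1 and RW-SS 1 had 4.80 each for Ptges (1449450_at). The Ptgs2 and Ptges probe sets were near background.

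The effect of sidestream smoke differed between the diets for Ptges2, by 0.27 ± 0.06 (limma adjusted p = 0.00198), and for Hpgd, by 0.53 ± 0.20 (adjusted p = 0.0474). In both cases DIO-SS hearts were higher than DIO-SC hearts (8 of 8 above the air mean), and RW-SS hearts were lower than RW-SC hearts on average (7 of 7 for Ptges2 and 6 of 7 for Hpgd). The Ptges2 interaction missed the threshold after a further quantile normalization (limma adjusted p = 0.0615). That of Hpgd missed it in 5 of 12 alternatives and without any 1 of 21 of 31 arrays, so it is not a firm result. The causes were not tested.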

How the results depend on the processing

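The Ptgds differences kept their direction in the 4 comparisons of smoke with air, in ranges over 12 or 13 alternatives of -0.62 to -0.48 (RW-MS), -0.77 to -0.65 (RW-SS), -0.98 to -0.83 (DIO-MS) and -0.91 to -0.79 (DIO-SS), and with 1 array left out of -0.57 to -0.47, -0.69 to -0.62, -0.92 to -0.80 and -0.91 to -0.78. The numbers of members past the threshold moved more. In RW-SS against RW-SC, 1 member became 2 with the lowest 50% of genes left out, with array weights and with the atrial mean as a covariate, and 0 with trend and robust settings, the further quantile normalization and the block by animal number. There the count of 1 also hid an exchange: Ptgis gave way to Ptges2 with only the groups compared (0.0684 and 0.0352) and to Ptges with no filter. In DIO-SS against DIO-SC, no filter put Ptges in the place of Hpgd, as in the sidestream interaction, and 2 became 1 with the mean of all probe sets, trend and robust settings, the block by animal number and the fat cell mean, and 0 with the quantile normalization. In the sidestream interaction, 2 became 1 with the mean of probe sets, trend and robust settings and the block by animal number, and 0 with the quantile normalization. In DIO-SS against RW-SS, 2 became 1 with the mean of probe sets and 3 with no filter (Ptges) and with the fat cell mean (Ptgis), and array weights turned 0 into 1 in RW-SS against RW-MS and in DIO-SS against DIO-MS. The pathway count became 1 in RW-MS against RW-SC, 0 in DIO-MS against DIO-SC and in DIO-SS against DIO-MS, and 5 in DIO-SS against RW-SS (5 of 8 kept) and in the sidestream interaction (4 of 9 kept, with Alox12 new) with the quantile normalization, and 0 in DIO-MS against DIO-SC with no filter. The causes were not tested. With 1 array left out, the member count ran from 0 to 2 in RW-SS against RW-SC, from 1 to 2 in DIO-SS against DIO-SC, in DIO-SS against RW-SS and in the sidestream interaction, and from 0 to 1 in RW-SS against RW-MS and in DIO-SS against DIO-MS. The Hpgd call in DIO-SS against DIO-SC was lost without DIO-SC 1, 3, 4, 5, 6 or 7 or DIO-SS 1, 2, 3, 4, 5 or 7.

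The replicate block by the number of the title gave Ptgds differences of -0.52, -0.67, -0.85 and -0.82 in RW-MS, RW-SS, DIO-MS and DIO-SS and changed no member's call. Same-numbered arrays gave no sign of pairing. Signal limits the members near background, Ptgs2 and Ptges, whose levels set no order.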
